A study of Mus musculus with 10 samples.

Results

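The genes described here are 10 transcripts known from T cells and natural killer (NK) cells: Lat, Cd3e, Cd3g, Lck, Zap70, Thy1, Bcl11b, Gata3, Il2rb and Nkg7. They were taken by name, by matching the Ensembl identifiers of the deposited table to GENCODE mouse symbols, and all 10 were found among 38887 genes. Transcript levels were measured by RNA sequencing of hematopoietic progenitor cells from bone marrow, and mice of both groups carried Lewis lung carcinoma, a lung tumour line grown in mice. One group received vehicle and the other BMS-595 at 60 mg/kg for 2 weeks. BMS-595 inhibits casein kinase 2 (CK2), and that group is called CK2i below. Each group had 5 libraries. The sample titles call the vehicle group untreated cells. The labels give no strain beyond the tumour model, no age, no sorting markers and no statement of whether libraries come from different animals; the p-values thus rest on a spread between libraries that may in part be technical. The comparison asks how the inhibitor altered the transcripts of marrow progenitors in a study of myeloid differentiation.

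As background, the T cell antigen receptor signals through the CD3 chains, whose cytoplasmic tails are phosphorylated by the kinase Lck. The kinase Zap70 then docks on those tails and phosphorylates the membrane adaptor Lat, on which a signalling complex with Gads (encoded by Grap2) and SLP-76 (encoded by Lcp2) assembles. Lat, Grap2 and Lcp2 are also used by megakaryocytes, platelets and mast cells, where they act below the collagen receptor GPVI and the IgE receptor. Marrow progenitors lie upstream of the thymus, and mature T and NK cells are a minor population of the marrow.

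The vehicle libraries held 37569160 to 43636152 estimated counts each and the CK2i libraries 34127674 to 40811539. All 14 progenitor markers on the list used here, among them Kit and Cd34, were at 1 CPM (counts scaled to library size) or more on average in vehicle libraries. Kit ran from 205 to 282 CPM and Cd34 from 131 to 211 CPM over the 10 libraries. On the first principal component, CK2i 2 and CK2i 5 lay at 43.26 and 43.68, apart from the other CK2i libraries (-4.1 to 12.48) and the vehicle libraries (-29.62 to -9.37). The differences of Lat and Nkg7 are therefore also given with CK2i 2 and 5 left out.

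The promoters of the most abundant listed genes, Lat and Nkg7, and of the least abundant, Cd3e, are shown because their transcript levels lay at opposite ends of the order. The windows are RefSeq's on GRCm38.p6, from 250 bases before to 50 bases after the annotated start, 5′ to 3′ on the gene's strand. Lat is at chr7:126369519-126369818 (minus strand), Nkg7 at chr7:43436888-43437187 (plus strand) and Cd3e at chr9:45009562-45009861 (minus strand). Capitals mark matches, on either strand, to AGGAAG (a core of Ets factor sites) and TGTGGT (a core of RUNX factor sites).
Lat: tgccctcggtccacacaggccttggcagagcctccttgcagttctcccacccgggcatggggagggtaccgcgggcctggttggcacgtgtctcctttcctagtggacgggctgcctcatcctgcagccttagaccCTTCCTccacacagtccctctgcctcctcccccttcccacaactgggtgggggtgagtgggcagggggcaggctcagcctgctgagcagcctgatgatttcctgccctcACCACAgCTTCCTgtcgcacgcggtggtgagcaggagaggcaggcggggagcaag
Nkg7: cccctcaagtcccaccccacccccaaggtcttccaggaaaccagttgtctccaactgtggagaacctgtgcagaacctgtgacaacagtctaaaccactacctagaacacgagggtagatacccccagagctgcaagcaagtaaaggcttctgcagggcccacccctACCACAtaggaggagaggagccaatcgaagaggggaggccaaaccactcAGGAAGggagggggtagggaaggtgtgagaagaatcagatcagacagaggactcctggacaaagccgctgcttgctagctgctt
Cd3e: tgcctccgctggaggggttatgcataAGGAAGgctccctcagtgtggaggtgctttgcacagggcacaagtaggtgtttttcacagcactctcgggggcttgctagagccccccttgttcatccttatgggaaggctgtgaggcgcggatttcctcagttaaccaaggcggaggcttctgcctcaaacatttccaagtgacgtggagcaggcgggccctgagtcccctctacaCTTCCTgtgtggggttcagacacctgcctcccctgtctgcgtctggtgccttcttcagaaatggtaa
AGGAAG was found 2 times in the Lat window, 1 time in that of Nkg7 and 2 times in that of Cd3e, and 35.4% of 32851 RefSeq promoter windows of 300 bases hold it. TGTGGT was found 1 time in each of the Lat and Nkg7 windows and is held by 16.8% of all windows. Neither AGATAA nor TGATAA, letters of GATA factor sites, was found in any of the 3, while 18.6% of all windows hold 1 of them. These matches describe letters and do not show binding. Promoter windows were matched for 8 of the 10 genes, with Thy1 and Il2rb unmatched.

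Among the 10 genes, only Lat and Nkg7 were abundant. In FPKM, which scales counts by transcript length and depth and so allows levels of different genes to be compared, the vehicle means were 56.6 ± 13.0 for Nkg7 and 52.8 ± 11.9 for Lat (SD, n = 5). Nkg7 and Lat stood above 95.1% and 94.7% of all genes in the table by vehicle FPKM. Nkg7, which encodes a granule membrane protein of cytotoxic lymphocytes, was the higher of the pair in 3 of 5 vehicle libraries, so their order was not settled there. Lat exceeded the next gene, Lck, in each of the 10 libraries, with no overlap of ranges.

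The other 8 genes were at or under 2.23 FPKM in every library. Lck followed at a vehicle mean of 1.5 ± 0.252 FPKM, then Il2rb, the beta chain shared by the interleukin-2 and interleukin-15 receptors, at 1.02 ± 0.353. Thy1, a surface glycoprotein of thymocytes that also marks some progenitors and stromal cells, was at 0.856 ± 0.13 FPKM, and Gata3, a transcription factor of T helper and innate lymphoid cells, at 0.578 ± 0.257 FPKM. Cd3g (0.242 ± 0.133), Zap70 (0.22 ± 0.0869), Bcl11b (0.128 ± 0.0277) and Cd3e (0.062 ± 0.0303) closed the order in FPKM. From Lck downwards, the vehicle ranges of every neighbouring pair touched or overlapped. Within libraries, Lck exceeded Il2rb and Bcl11b exceeded Cd3e in each of the 10, and Zap70 exceeded Bcl11b in 5 of 5 vehicle libraries. The other neighbouring pairs kept this order in only 3 or 4 of 5 vehicle libraries, so those steps were not settled.

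**Figure D1:**
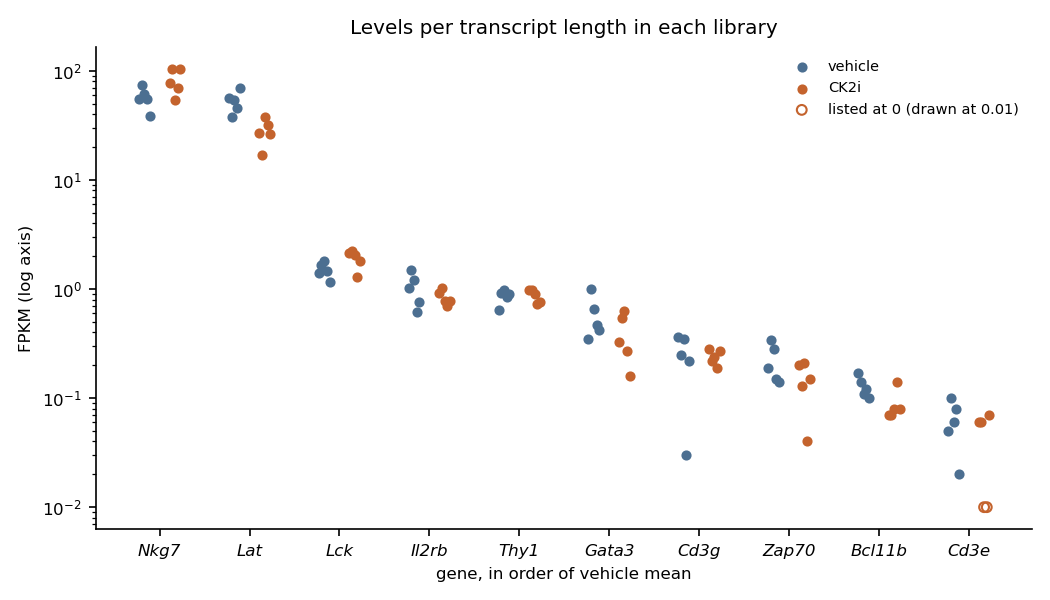
Deposited FPKM of the 10 genes in each vehicle and CK2i library on a log axis, ordered by vehicle mean; each point is 1 library and open circles mark values listed at 0. Nkg7 and Lat lie between 16.8 and 104 FPKM, and the other 8 genes at or under 2.23 FPKM.

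Cd3e and Cd3g, which encode signalling chains of the T cell receptor complex, were close to absent. Cd3e, the epsilon chain of CD3 (ENSMUSG00000032093; GRCm38 chromosome 9, 44998740 to 45009627, minus strand), had estimated counts of 3, 5, 3, 4 and 1 in vehicle 1 to 5 and of 3, 3, 0, 0 and 3 in CK2i 1 to 5. The groups overlapped, and a count of 0 allows up to 3 counts, or 0.0756 and 0.0793 CPM in CK2i 3 and 4, as a limit for counting error only. Cd3g, the gamma chain (ENSMUSG00000002033; chromosome 9, 44969572 to 44980431, minus strand), had 4, 8, 5, 1 and 5 counts in vehicle and 9, 7, 8, 6 and 8 in CK2i. Of these, CK2i 1 and 5 lay above all vehicle libraries in CPM and the others within their range. Neither gene passed the filter on low counts, so neither was tested, and no difference is read from counts of this size.

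The remaining chains of the receptor were low as well, though not all as low as Cd3e. Of 12 further genes listed for the receptor and its coreceptors, 8 were matched and 7 of them were under 1 CPM on average in vehicle libraries. Trac, the constant segment of the alpha chain, had 0 to 3 counts per library, and Cd3d had 1 to 8 counts. Cd247, the zeta chain, had 8 to 16 counts. Trbc1 and Trbc2, the beta chain constant segments, which are near-identical copies whose reads RSEM shares out, had 0 to 19 and 5 to 30 counts. Per length, Trbc2 reached a vehicle mean of 1.43 FPKM, close to Lck, and Trbc1 0.918 FPKM. Cd8a ran from 1 to 14 and Cd8b1 from 0 to 6 counts. Only Cd4, a coreceptor that myeloid cells can also carry, reached 1 CPM, at 1.18 ± 0.179 in vehicle and 1.23 ± 0.264 in CK2i (SD, n = 5 each). In edgeR's quasi-likelihood test 0 of the 3 genes tested (Trbc1, Trbc2 and Cd4) passed an adjusted p of 0.05, 0 had an unadjusted p under 0.05, and DESeq2 called 0.

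The label of T and NK cell genes was thus not matched by the levels of Cd3e, Cd3g and Trac. Natural killer and cytotoxic genes were mixed in level. Ncr1, the activating receptor NKp46, ran from 0.37 to 1.35 CPM over the 10 libraries and Klrb1c, which encodes NK1.1, from 0.826 to 1.84 CPM. Gzma, Prf1, Eomes and Tbx21, genes of cytotoxic granules and of the NK program, each stayed under 0.4 CPM in every library. Others on that list, which more cell types express, were higher: Klrk1, the receptor NKG2D, ran from 2.45 to 9.05 CPM, and Id2, a transcriptional inhibitor, had a vehicle mean of 4.82 CPM. Of the 27 further NK and cytotoxic genes listed, 13 were at 1 CPM or more on average in vehicle libraries and 14 were under it.

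Between the groups, 8 of the 10 listed genes passed the filter and 1 of these, Lat, passed the test, as a fall. Over all 14346 genes tested, 13.2% passed, with 6.76% lower and 6.43% higher in CK2i, so 1 of 8 is near the background and says nothing about the genes as a group. The median log2 difference of the 8 was -0.33, beside 0.00 over all genes tested. In bulk samples, fewer cells of a type and less RNA per cell cannot be told apart.

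**Figure D2:**
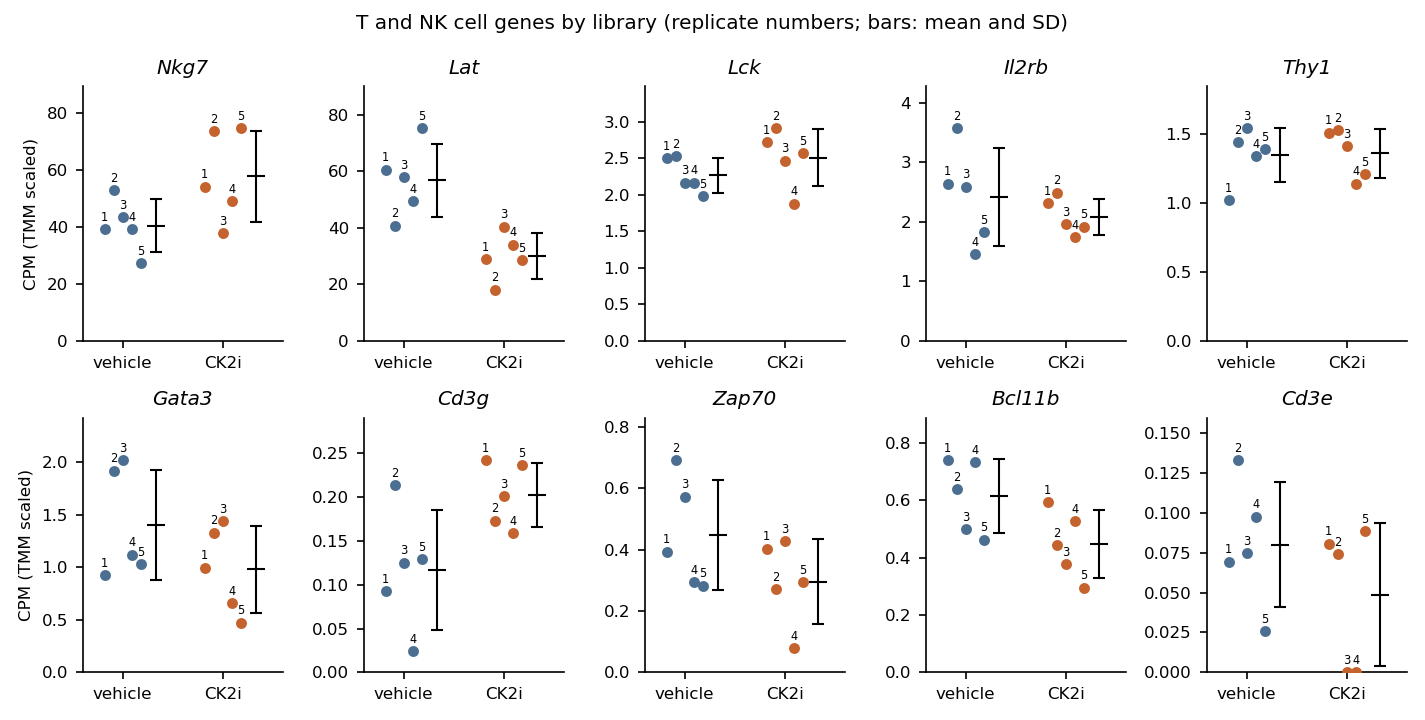
CPM with TMM scaling of the 10 genes in each library; numbers are the replicate numbers of the labels, bars are mean and SD (n = 5), and each panel has its own scale from 0. For Lat the CK2i libraries (18.1 to 40.4 CPM) lie below the vehicle libraries (40.8 to 75.1 CPM), and the groups overlap in the other 9 panels.

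Lat (ENSMUSG00000030742; chromosome 7, 126363824 to 126369570, minus strand) fell 1.89-fold. The vehicle libraries 1 to 5 held 60.6, 40.8, 57.9, 49.3 and 75.1 CPM, and the CK2i libraries 1 to 5 held 28.8, 18.1, 40.4, 34.0 and 28.5 CPM. Each CK2i library lay below each vehicle library, though CK2i 3 and vehicle 2 almost met, and 5.76% of all genes tested were apart in this direction. The group means were 56.7 ± 12.8 and 30.0 ± 8.21 CPM (SD, n = 5 each), which is -0.92 ± 0.20 in log2 (SE, edgeR quasi-likelihood adjusted p = 0.0232). With CK2i 2 and 5 left out the difference was -0.72 (edgeR adjusted p = 0.0888). A fit with 1 surrogate variable, a hidden factor estimated from the counts that itself correlated at 0.7 with treatment, gave -0.44 (edgeR adjusted p = 0.466). The call was lost without vehicle 1 (edgeR adjusted p = 0.0562), without vehicle 5 (0.0522) and without CK2i 5 (0.0575), and the range over the 10 fits that left out 1 library was 0.0119 to 0.0575.

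A platelet gene, Pf4, was among the genes that moved most closely with Lat from library to library. The 5 genes whose log2 CPM was most like that of Lat over the 10 libraries, after each group mean was taken off, were P3h1, Fer, Pf4, Slc24a5 and Lrrc32, each with a Pearson coefficient of 0.98. These are the best of all genes tested, and libraries share depth and cell makeup, so the coefficients are a description. Of these genes, Pf4 alone is on the platelet and megakaryocyte marker list used here. P3h1 and Fer, the top of the ranking, did not pass between the groups (log2 -0.03 and -0.25, edgeR adjusted p = 0.798 and 0.129). Pf4 encodes the chemokine platelet factor 4 of platelet granules, and Lrrc32 encodes GARP, a surface protein of platelets and regulatory T cells. Pf4 had a mean of 599 ± 125 CPM in vehicle and of 366 ± 118 CPM in CK2i libraries (SD, n = 5 each) and did not pass (edgeR adjusted p = 0.0535).

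All 22 platelet and megakaryocyte markers listed were at 20 CPM or more on average in vehicle libraries. Their summed level was 5740 to 8750 CPM in vehicle and 3660 to 7180 CPM in CK2i libraries, with CK2i 2, 4 and 5 below all vehicle libraries. Of the 22, 7 fell and 0 rose, with a median log2 difference of -0.55, beside 6.76% lower and 6.43% higher over all genes tested. DESeq2 called 14 of the 22, and 3168 of all 22935 genes with any count, a total that includes genes with very few counts. Tubb1, Ppbp, Treml1, Gp9, Alox12 and Rap1b were among the 7. Tubb1, the platelet beta tubulin, fell by 0.88 and Ppbp, a platelet granule chemokine precursor, by 0.76 on the log2 scale (edgeR adjusted p = 0.0347 and 0.0385). The sum itself differed by -0.55 in log2.

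The level of Lat relative to that sum is given as a description, since this measure was chosen after the values were seen. Lat was 0.759% ± 0.0829 of the summed marker level in vehicle and 0.583% ± 0.0982 in CK2i libraries (SD, n = 5 each), a log2 difference of -0.39. The ranges, 0.661% to 0.863% and 0.486% to 0.691%, overlapped. The part of platelet and megakaryocyte RNA in the fall of Lat was not tested. The scatter of Lat against the marker sum shows the values of each library.

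**Figure D3:**
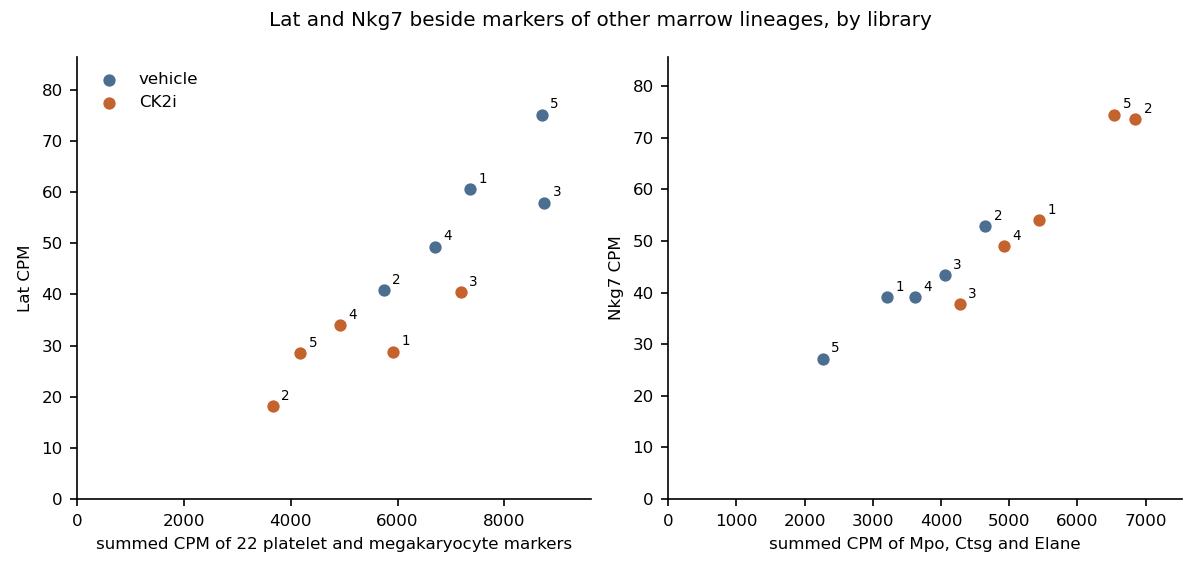
CPM of Lat against the summed CPM of 22 platelet and megakaryocyte markers (left) and of Nkg7 against the summed CPM of Mpo, Ctsg and Elane (right), with 1 point per library and the replicate number beside it; all axes start at 0. Points run from the lower left to the upper right of both panels, with CK2i 2 and 5 at the low end on the left and the high end on the right.

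Nkg7 (ENSMUSG00000004612; chromosome 7, 43437073 to 43438249, plus strand) differed in the other direction without passing the test. Vehicle 1 to 5 held 39.2, 52.9, 43.4, 39.2 and 27.2 CPM, and CK2i 1 to 5 held 54.1, 73.6, 37.8, 49.0 and 74.5 CPM. CK2i 1, 2 and 5 lay above all vehicle libraries and CK2i 3 and 4 within their range. The means were 40.4 ± 9.23 and 57.8 ± 16.0 CPM (SD, n = 5 each), which is 0.52 ± 0.20 in log2 (SE, edgeR adjusted p = 0.102). It passed with DESeq2 (adjusted p = 0.047) and without CK2i 3 (edgeR adjusted p = 0.0344); leaving out any 1 library gave 0.0344 to 0.228. With CK2i 1, 3 and 4 only it was 0.21 (edgeR adjusted p = 0.575), and with 1 surrogate variable the direction turned (-0.07, 0.919).

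Genes of myeloid primary granules stood beside Nkg7. The summed level of Mpo, Ctsg and Elane, which encode myeloperoxidase, cathepsin G and neutrophil elastase, was 2270 to 4650 CPM in vehicle and 4280 to 6850 CPM in CK2i libraries, a log2 difference of 0.67. Nkg7 was 1.14% ± 0.0669 of that sum in vehicle and 1.02% ± 0.0965 in CK2i libraries (SD, n = 5 each), also a description chosen after the values were seen. The part of granulocyte and monocyte progenitors in the Nkg7 values was not tested.

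The kinases among the 10 genes, Lck and Zap70, were low and did not pass. Lck (ENSMUSG00000000409; chromosome 4, 129548344 to 129573641, minus strand) held 2.50, 2.53, 2.17, 2.17 and 1.98 CPM in vehicle 1 to 5 and 2.72, 2.91, 2.47, 1.88 and 2.57 CPM in CK2i 1 to 5. CK2i 1, 2 and 5 were above and CK2i 4 below all vehicle libraries. The log2 difference was 0.14 ± 0.14 (SE, edgeR adjusted p = 0.485), and 2 SE on either side span -0.13 to 0.42. Zap70 (ENSMUSG00000026117; chromosome 1, 36761798 to 36782818, plus strand) had 11 to 26 counts in vehicle and 3 to 17 in CK2i libraries. It was at 0.447 ± 0.18 and 0.295 ± 0.138 CPM (log2 -0.59 ± 0.39, edgeR adjusted p = 0.309), with CK2i 2 and 4 below all vehicle libraries.

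Both T lineage transcription factors on the list were lower in mean without passing. Bcl11b (ENSMUSG00000048251; chromosome 12, 107910403 to 108003602, minus strand), which is needed for T lineage commitment, held 0.74, 0.639, 0.498, 0.732 and 0.463 CPM in vehicle and 0.592, 0.444, 0.378, 0.528 and 0.295 CPM in CK2i libraries. CK2i 2, 3 and 5 lay below all vehicle libraries (log2 -0.46 ± 0.23, edgeR adjusted p = 0.182). Gata3 (ENSMUSG00000015619; chromosome 2, 9857078 to 9890034, minus strand) held 0.925, 1.92, 2.02, 1.12 and 1.03 CPM in vehicle and 0.995, 1.33, 1.44, 0.661 and 0.472 CPM in CK2i libraries. Vehicle 2 and 3 stood above the rest, CK2i 4 and 5 below all vehicle libraries, and the difference was -0.51 ± 0.33 (edgeR adjusted p = 0.299). By whole gene span, Gata3 overlaps 4930412O13Rik and Gm13256 on the opposite strand, and overlap of exons was not examined. Its counts could include their reads if exons overlap and the counting ignored strand. The same holds for Cd3e with Gm48719 and Zap70 with Gm18828. On their own strand, Gata3 overlaps 9230102O04Rik and Cd3e overlaps Gm48720, and counting by strand would not separate reads of shared exons. Lat and Lck hold the microRNA genes Mir7058 and Mir8119 on their own strand.

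The surface receptors Il2rb and Thy1 overlapped fully between the groups. Il2rb (ENSMUSG00000068227; chromosome 15, 78479256 to 78495271, minus strand) ran from 1.46 to 3.57 CPM in vehicle and from 1.74 to 2.49 CPM in CK2i libraries, every CK2i library within the vehicle range (log2 -0.21 ± 0.22, edgeR adjusted p = 0.526). Thy1 (ENSMUSG00000032011; chromosome 9, 44043384 to 44048579, plus strand) ran from 1.02 to 1.54 and from 1.14 to 1.53 CPM. Its log2 difference was 0.01 ± 0.15 (edgeR adjusted p = 0.957), and 2 SE on either side span -0.29 to 0.32.

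Beyond the 10 genes, some genes of the proximal signalling machinery also passed, in both directions, while most of those tested did not. Of 35 listed, 30 were tested, 5 fell and 1 rose, with a median log2 difference of -0.17. These counts stand beside 6.76% and 6.43% of all genes tested. Grap2, the Gads adaptor that joins Lat to SLP-76, fell from 45.5 ± 8.56 to 26.1 ± 9.47 CPM (SD, n = 5 each; log2 -0.80 ± 0.22, edgeR adjusted p = 0.0403). Prkcq, protein kinase C theta, fell by 0.44 on the log2 scale (edgeR adjusted p = 0.0452). Ubash3b and Ubash3a, which encode phosphatase family members that damp receptor signals, fell by 0.52 and 0.26 (0.0431 and 0.0493), and Csk, the kinase that restrains Src family kinases, by 0.20 (0.0486). Cbl, an E3 ubiquitin ligase, rose from 47.2 ± 3.73 to 75.9 ± 27.6 CPM (log2 0.69 ± 0.20, edgeR adjusted p = 0.0497), a direction that turned with 1 surrogate variable (-0.02).

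This list mixes widely expressed and T cell restricted genes. In vehicle libraries 19 of its 35 members were at 20 CPM or more on average and 9 were under 1 CPM, and every member that passed was among the 19. Lcp2, which encodes SLP-76, was at 77.3 ± 8.15 and 65.0 ± 5.02 CPM and missed the threshold (edgeR adjusted p = 0.0518).

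Of 20 further T lineage transcription factors, 16 were tested and Gfi1 alone passed, beside 13.2% of all genes tested. Gfi1, a repressor used in T cells and needed for neutrophil development, rose from 23.0 ± 5.25 to 43.0 ± 9.73 CPM, each CK2i library above each vehicle library (SD, n = 5 each; log2 0.91 ± 0.18, edgeR adjusted p = 0.0187). Over all genes tested, 5.18% were apart in that direction. Tcf7, which encodes TCF-1 of early T cell progenitors, was at 0.566 ± 0.103 and 0.613 ± 0.184 CPM (edgeR adjusted p = 0.744). Lef1, its relative, had 6 to 14 counts per library, and Foxp3, the regulatory T cell factor, had 1 count in 1 library.

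Of the 27 natural killer and cytotoxic genes, 17 were tested, 3 rose and 2 fell, with a median log2 difference of -0.28. Over all genes tested, 6.43% rose and 6.76% fell. Cd226, an adhesion receptor of NK cells, T cells and platelets, fell from 66.4 ± 10.7 to 39.6 ± 11.5 CPM, each CK2i library below each vehicle library (SD, n = 5 each; log2 -0.74 ± 0.18, edgeR adjusted p = 0.0302). Of all genes tested, 5.76% were apart in this direction. Gzmb, granzyme B, which is also on the mast cell and basophil list, fell by 0.66 on the log2 scale from 2.49 ± 0.611 CPM (edgeR adjusted p = 0.0446). Zbtb16, the transcription factor PLZF, rose by 0.64 (edgeR adjusted p = 0.0258). Nfil3, a factor needed for NK cell development, rose by 0.39, and Cd244a, the receptor 2B4, which myeloid progenitors also carry, rose by 0.41 (0.0436 and 0.0414). For these last 3 genes each CK2i library lay above each vehicle library, and 5.18% of all genes tested were apart in that direction.

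Among 14 genes of the common gamma chain receptors and their signalling, 4 fell and 1 rose (median -0.12), beside 6.76% lower and 6.43% higher over all genes tested. Il15ra, the interleukin-15 receptor alpha chain, rose from 7.76 ± 0.421 to 11.4 ± 2.30 CPM, each CK2i library above each vehicle library (SD, n = 5 each; log2 0.55 ± 0.13, edgeR adjusted p = 0.0258). Of all genes tested, 5.18% were apart in this direction. The signal transducers Stat5a, Stat5b and Jak1 fell by 0.23, 0.16 and 0.14 on the log2 scale (edgeR adjusted p = 0.0178, 0.0258 and 0.0407). Il21r, the interleukin-21 receptor, fell by 0.33 (edgeR adjusted p = 0.0452). In the list for group 2 innate lymphoid cells, 7 of 12 were tested and Il1rl1, the interleukin-33 receptor, which mast cells and basophils also carry, fell by 0.31 (edgeR adjusted p = 0.0258). Of 11 lymphoid priming genes, Ccr9, a chemokine receptor of thymus-seeding progenitors and plasmacytoid dendritic cells, fell by 0.80 (edgeR adjusted p = 0.0356), and none of the others passed. In that list Il7r, the interleukin-7 receptor, ran from 2.06 to 4.09 CPM over the 10 libraries (edgeR adjusted p = 0.303).

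**Figure D4:**
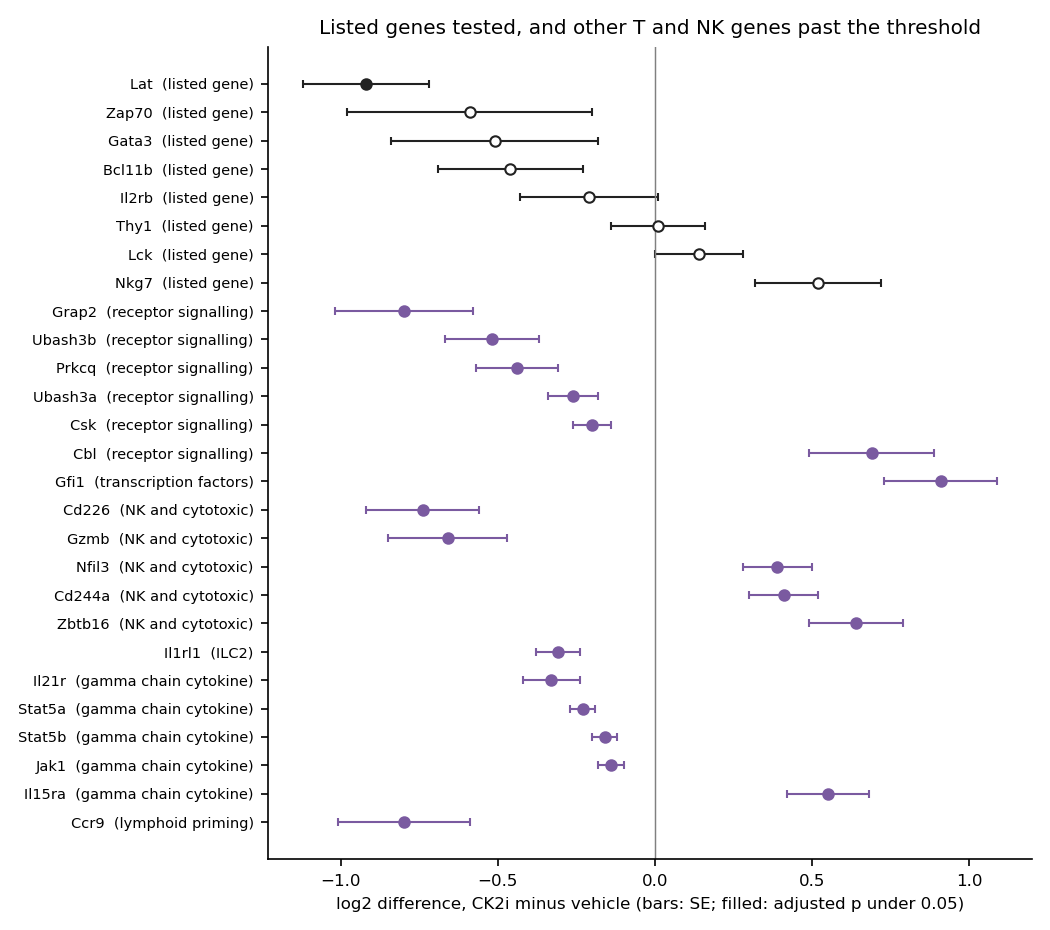
Log2 differences, CK2i minus vehicle, with SE, for the 8 listed genes that were tested (black) and for the 19 other T, NK and lymphoid genes past an adjusted p of 0.05 (purple); filled points passed. Lat is the only filled black point, and the purple points, which were selected for passing, lie on both sides of 0.

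Of these 19 calls, between 2 and 19 were kept when 1 library was left out: 2 without vehicle 1, vehicle 3 or CK2i 5, 3 without vehicle 4, vehicle 5 or CK2i 2, and 10 or more without any of the others. With CK2i 1, 3 and 4 only, and with 1 surrogate variable, 0 of the 19 were kept by edgeR. DESeq2 called all 19, limma 8, 7 and 1 in its 3 settings, and edgeR without a count filter 11.

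Marker lists of other cells were read beside these genes, and over all genes tested 6.43% rose and 6.76% fell. Of 9 mast cell and basophil markers tested, 1 rose and 1 fell, and of 11 neutrophil and monocyte markers, 2 rose. Of 14 progenitor markers, 4 rose and 1 fell. For plasmacytoid dendritic cell markers 1 of 8 fell, for stromal and endothelial markers 1 of 10, and for B lineage markers 0 of 5 passed. Mast cell and basophil markers summed to 563 to 933 CPM in vehicle and 314 to 690 CPM in CK2i libraries, 4 of the 5 CK2i libraries below all vehicle libraries, and the mast cell proteases Tpsb2, Cma1 and Mcpt4 stayed under 0.3 CPM in every library. Other proteases of mast cells and basophils were abundant, with Cpa3 at 33.4 to 86.6, Mcpt8 at 39.3 to 212 and Prss34 at 100 to 426 CPM over the 10 libraries. On that list Hdc, histidine decarboxylase, rose by 0.54 while Gzmb fell (edgeR adjusted p = 0.0431 and 0.0446). The sum for mature neutrophil and monocyte markers was 264 to 501 CPM in vehicle and 394 to 905 CPM in CK2i libraries, and S100a8 and Mmp8, genes of neutrophil granules and cytosol, rose by 1.65 and 0.97 on the log2 scale (edgeR adjusted p = 0.0404 and 0.0493). For plasmacytoid dendritic cell markers it was 200 to 302 and 232 to 342 CPM, and for stromal and endothelial markers 188 to 271 and 154 to 229 CPM, with Pecam1 alone past the threshold (log2 -0.24, edgeR adjusted p = 0.0429). Of the progenitor markers, Mpo, Ctsg, Elane and Cebpa rose by 0.63, 0.71, 0.84 and 0.38 and Kit fell by 0.26 on the log2 scale (edgeR adjusted p from 0.0249 to 0.0451). B lineage markers, most of whose sum is Ighm, ran from 1260 to 1900 and from 731 to 3140 CPM. No marker on any of these lists was at 0 in all 10 libraries. Their part in the values of the 10 genes was not tested.

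**Figure D5:**
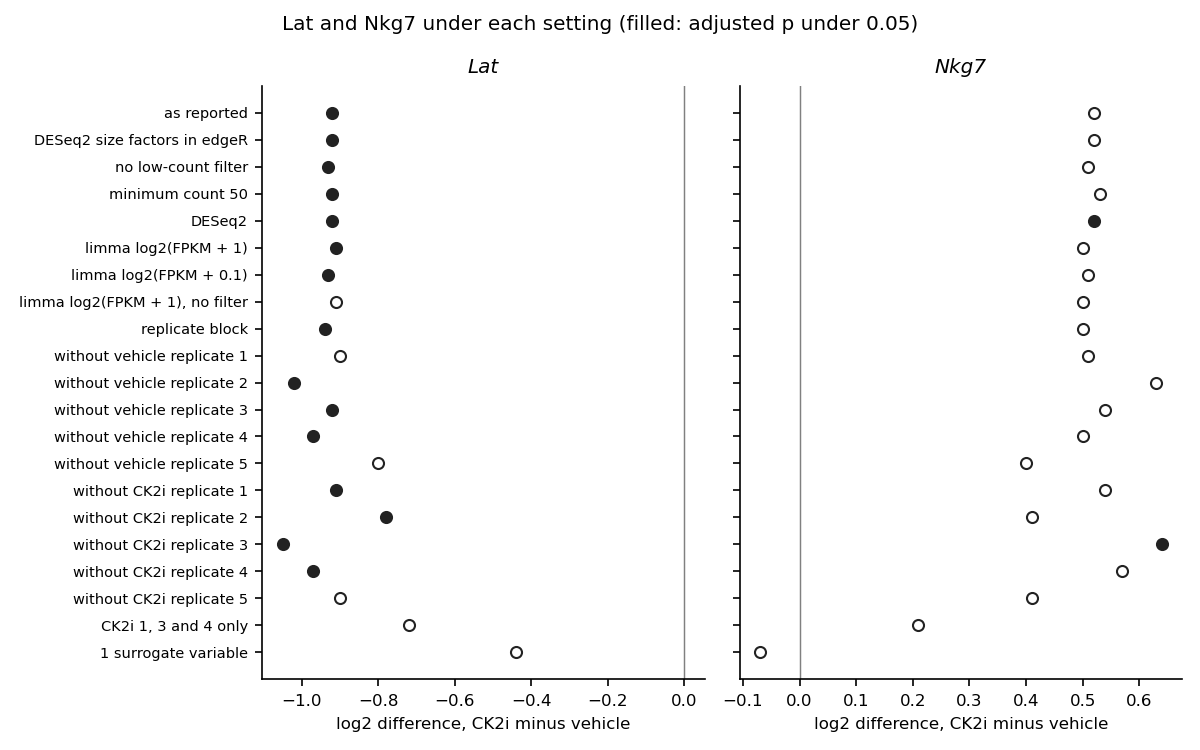
Log2 differences of Lat (left) and Nkg7 (right), CK2i minus vehicle, under the reported setting and 20 alternatives; filled points passed an adjusted p of 0.05. Lat stays below 0 throughout, from -1.05 to -0.44, and Nkg7 runs from -0.07 to 0.64.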

How the data were processed

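RNA sequencing of total RNA was analysed from 5 vehicle and 5 CK2i libraries, made with a stranded kit per the labels' protocols. The deposited table holds RSEM estimated counts, which are whole numbers and appear rounded before deposit, and FPKM values computed by the authors. Bowtie2, RSEM 1.2.31, the build mm10 and DESeq2 are named per the submitters' processing notes; annotation and strand setting: not given in the sources used here. Symbols and coordinates came from GENCODE M21 (GRCm38), which matched 37570 of 38887 identifiers; Trdc, Trgc1, Trgc2 and Trgc4 were unmatched and are not analysed here.

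Groups were compared by edgeR 4.0.16 (quasi-likelihood, in R 4.3.3) with TMM scaling, group as the only term and filterByExpr at a minimum count of 10, which kept 14346 genes. Adjusted p-values (Benjamini-Hochberg, over all genes kept) had a threshold of 0.05. The test was two-sided and was tested on simulated data. SE is the log2 difference divided by the square root of F. Alternatives used limma 3.58.1 on log2(FPKM + 1) and log2(FPKM + 0.1), DESeq2 1.42.0, sva 3.50.0, other filters and scaling, a replicate block and fewer libraries. At a biological coefficient of variation of 14.2%, spread between libraries, not counting error, limits all but the lowest genes.

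The members, lists and alternatives were chosen with earlier results of these data known. Text names all 10 genes, the receptor chains, list genes past the threshold, and for each called member the 5 genes most like it; the same for Cd3e was not given, since it had 0 to 5 counts. Other genes were named as examples after their values were seen, and a few listed genes are not reported here.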

Additional observations from a re-analysis of the deposited data

How the results depend on the processing

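The count of genes past the threshold, 1892 in the reported fit, was 3168 with DESeq2, 966 and 982 by limma on log2(FPKM + 1) and log2(FPKM + 0.1), 360 by limma without a filter, 1139 with the replicate block, 175 with CK2i 1, 3 and 4 only and 30 with 1 surrogate variable. Leaving out 1 library gave 446 (without CK2i 5) to 3198 (without CK2i 3). Of the 10 listed genes, 1 passed in the reported fit, 2 with DESeq2, 0 by limma without a filter, 0 with CK2i 1, 3 and 4 only, 0 with 1 surrogate variable, and 0 to 2 without 1 library. DESeq2 size factors, the other count filters, the replicate block and limma with a filter left this count at 1. With 1 surrogate variable the sign turned for Nkg7 (-0.07), Thy1 (-0.01), Cbl (-0.02), Trbc1 (0.18) and Cd4 (-0.32), and for Cd4 also with CK2i 1, 3 and 4 only (-0.12). Without 1 library Thy1 ran from -0.07 to 0.07 and Cd4 from -0.01 to 0.17. Why these values moved was not tested. Over 46 of the genes tested, 492 values stayed on their side of the threshold, 409 lost the call, 2 gained it and 12 turned sign.

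The replicate numbers share no stated source, and deviations of same-numbered libraries from their group means correlated at -0.16 to 0.23, with replicate 1 alone matching best with its own number. With the replicate block, 1139 genes passed, Lat kept its call (-0.94, edgeR adjusted p = 0.0194), and 11 of the 19 other T, NK and lymphoid calls were kept. Csk, Ubash3a, Cbl, Nfil3, Cd244a, Il15ra, Jak1 and Stat5b lost theirs (edgeR adjusted p from 0.0508 to 0.0878), as did Hdc, S100a8, Mmp8, Pecam1, Mpo and Elane. Depth limits Cd3e, Cd3g and Trac, at 9 counts or fewer per library, to a statement of presence near the floor of 3 counts.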

Other observations

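Vehicle 2 and 3 were the highest pair among the 5 vehicle libraries for 15 of 29 listed T, NK and group 2 innate lymphoid genes that were tested and under 10 CPM (51.7%). They were the highest pair for 15.2% of all 5147 genes tested and under 10 CPM in vehicle, and for 14.2% of all genes tested. The pair was picked because it stood out in these genes, so the count is a description with no test, and the 15 share libraries. Il7r held 3.62 and 4.09 CPM in vehicle 2 and 3, against 2.06, 3.20 and 2.50 in vehicle 1, 4 and 5. Rora, a transcription factor of innate lymphoid cells, held 2.93 and 2.82 CPM, against 1.76, 1.93 and 1.78. Ncr1 held 1.28 and 1.35 CPM, against 0.879, 0.854 and 0.798. Ccl5, a chemokine of T and NK cells, held 0.932 and 1.02 CPM, against 0.532, 0.439 and 0.438. Lck, Il2rb and Bcl11b were not among the 15. Lat was lowest of the vehicle group in vehicle 2, at 40.8 CPM.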
